A study of Mus musculus with 6 samples.

Results

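The AP-1 family was followed through 10 genes of its Fos, Jun, small Maf and Atf3 branches: Fos, Fosb, Fosl1, Fosl2, Jun, Junb, Jund, Maff, Mafk and Atf3. They were taken by symbol from the 54884 entries of the deposited expression table, and each of the 10 had exactly 1 entry. The table held 6 poly(A)-selected RNA libraries of cultured neural stem cells, which divide to renew themselves and give rise to neurons and glia, isolated from the hippocampus of embryonic C57BL/6J mice at day 14 and used between passages 3 and 8. In 3 libraries the cells had been given a lentivirus with an siRNA against circHIPK2, a circular RNA made from the Hipk2 gene. In 3 they had been given a lentivirus with the control siRNA circCon. Both groups therefore received a lentivirus, and no group without one was among these samples. The labels do not say whether the libraries of a group came from separate cultures. The p-values therefore weigh differences against the spread of these 6 libraries, and that spread may be technical only.

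AP-1 is a dimer of basic leucine zipper proteins that binds DNA at short palindromic sites. Fos proteins do not bind as dimers of their own kind and pair with Jun proteins, which can also pair with each other or with Atf proteins. Small Maf proteins lack a transactivation domain and form dimers with Fos or with cap'n'collar factors such as Nrf2. Several members of the family are immediate early or stress-inducible genes, switched on by growth factors, synaptic activity or injury without new protein synthesis. In the nervous system AP-1 is best known as a readout of neuronal activity and of cell stress.

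The promoters of 5 members are shown because expression of 4 of them, Fos, Fosb, Atf3 and Junb, was 1.82-fold to 5.70-fold as high with the siRNA, while that of Jun, the most abundant member, was 1.08-fold as high. They were thus chosen after their values were seen, and only Fos passed the test given below. Junb and Jun did not pass it, and Fosb and Atf3 were too weakly expressed to be tested. RefSeq promoter windows on build GRCm38.p6, from 250 bases before to 50 bases after a start, were found for 9 of the 10 members, with 11 windows in all. Fosl1 had none. The 150 bases before each start are printed 5′ to 3′, in capitals where they hold TGACG or its reverse complement CGTCA, the core of the cAMP response element, or, for Jun alone, TGACATCA, an 8-base variant of the AP-1 site.
Fos, chr12:85473740-85473889, plus strand: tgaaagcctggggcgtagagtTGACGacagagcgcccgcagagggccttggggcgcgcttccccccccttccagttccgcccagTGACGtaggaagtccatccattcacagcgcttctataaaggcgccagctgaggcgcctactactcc
Fosb, chr7:19310046-19310195, minus strand: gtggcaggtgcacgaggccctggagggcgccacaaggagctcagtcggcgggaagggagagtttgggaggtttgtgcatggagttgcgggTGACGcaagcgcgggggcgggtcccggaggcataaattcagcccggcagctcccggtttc
Atf3, chr1:191183334-191183483, minus strand: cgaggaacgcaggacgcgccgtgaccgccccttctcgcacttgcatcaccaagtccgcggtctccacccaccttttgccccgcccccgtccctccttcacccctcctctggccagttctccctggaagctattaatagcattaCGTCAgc
Junb, chr8:84978749-84978898, minus strand: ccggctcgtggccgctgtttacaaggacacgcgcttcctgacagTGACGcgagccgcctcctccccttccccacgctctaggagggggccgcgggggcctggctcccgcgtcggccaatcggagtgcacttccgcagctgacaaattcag
Jun, chr4:95052223-95052372, minus strand: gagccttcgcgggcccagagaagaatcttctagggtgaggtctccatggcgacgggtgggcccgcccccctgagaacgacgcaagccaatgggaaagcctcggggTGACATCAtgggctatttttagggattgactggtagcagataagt
The core TGACG was present on either strand in the windows of 6 of the 9 genes, namely Fos, Fosb, Junb, Atf3, Maff and Mafk, and in 20.8% of the 32851 promoter windows of all genes. In Fos it began at positions -129 and -66 and in Fosb at -60, where -1 is the base just before the start. In Junb it began at -106 and in Atf3 at -7. The full palindrome TGACGTCA, which contains the core on both strands, was found in 1 member, Maff, and in 1.79% of all windows. TGACATCA or its reverse complement was found in Jun and in Maff, and in 3.62% of all windows. The AP-1 site TGANTCA (7.81% of all windows) and the CArG box bound by serum response factor (1.63%) were found in 0 of the 11 member windows. TATAAA or its reverse complement was found in Fos at -33 and in Junb at 1, the start itself, and in 13.6% of all windows. These matches describe letters within these windows and say nothing of binding. Sequence more than 250 bases before a start was not searched, so sites there, CArG boxes included, would be missed.

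Steps in the low FPKM values (fragments per kilobase per 1000000 mapped fragments) gave between 18460000 and 20840000 fragments in the siRNA libraries and between 19880000 and 21830000 in the controls when depths up to 30000000 were searched. With depths up to 50000000 searched, the best step of all 6 libraries moved to between 36790000 and 41980000 with the siRNA and between 39760000 and 43970000 in the controls, so the depth itself is uncertain by about this factor. The cells carried the markers of their label: all 9 neural stem cell markers, among them Nes and Sox2, averaged at least 1 FPKM, and together they summed to between 1759 and 2218 FPKM with the siRNA and between 1943 and 2489 FPKM in the controls. Oligodendrocyte lineage markers (7 genes, 623 to 779 FPKM with the siRNA and 779 to 847 FPKM in the controls) and astrocyte markers (6 genes, 164 to 396 and 179 to 319 FPKM) were also present. The stem cell markers Hes5 (10.1 ± 1.05 FPKM with the siRNA and 17.2 ± 1.89 FPKM in the controls) and Fabp7 (755 ± 148 and 1206 ± 307 FPKM) were below all controls in every siRNA library without passing the test (adjusted p = 0.0666 and 0.211, limma). Of all entries tested, 22.1% lay below all controls in this way. The other stem cell markers overlapped between the groups. Sox2, Pax6, Slc1a3 and Vim averaged higher with the siRNA, and Nes, Msi1 and Sox9 lower. The 8 neuronal markers summed to between 93.4 and 105 FPKM with the siRNA and between 120 and 130 FPKM in the controls, and Map2 alone made up 89.7% and 88.8% of these sums. Without Map2 they summed to between 8.57 and 11.8 FPKM with the siRNA and between 13.4 and 14.4 FPKM in the controls, and Rbfox3, Stmn2, Syt1 and Neurod6 each averaged below 1 FPKM in both groups. The 8 microglial, 6 endothelial, 7 fibroblast and pericyte and 7 erythroid markers each summed to less than 1 FPKM in every library, and Cx3cr1, C1qb and Ptprc, which mark microglia and blood cells, were listed at 0 in all 6. Of these low sums, the endothelial one lay below all controls in every siRNA library (0.274 to 0.394 FPKM with the siRNA and 0.464 to 0.516 FPKM in the controls) and the fibroblast and pericyte one above them (0.593 to 0.791 and 0.418 to 0.584 FPKM). Acta2 alone made up 72.4% of the fibroblast and pericyte sum with the siRNA and 55.2% in the controls. Without Acta2 the groups overlapped (0.150 to 0.224 FPKM with the siRNA and 0.215 to 0.236 FPKM in the controls). The 11 hepatocyte markers summed to between 15.5 and 17.7 FPKM with the siRNA and between 52.5 and 76.3 FPKM in the controls. Without Trf, which averaged 14.3 ± 1.25 and 14.5 ± 0.18 FPKM, they summed to between 1.98 and 2.22 FPKM with the siRNA and between 38.2 and 61.7 FPKM in the controls. The albumin gene Alb averaged 0.0714 ± 0.043 FPKM with the siRNA and 19.1 ± 3.02 FPKM in the controls. Of the 10 hepatocyte markers tested 9 fell, and they were 9 of the 19 entries called lower over all genes. All of these 9 but Apoa2 averaged below 1 FPKM with the siRNA and passed the filter on low values only through the controls. Afp, low in both groups, was not tested, so the filter shaped this count. A group of 9 entries, which lie at the ribosomal RNA locus or followed it across these libraries, took 11.5%, 3.24% and 19.9% of all FPKM in siRNA libraries 1 to 3, against 0.58%, 0.43% and 0.32% in control libraries 1 to 3. The part of any of these in the results on AP-1 was not tested, other than by the rescaling without the 9 entries that is given beside them.

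Within the family, expression was dominated by Jun, Fos and Jund. FPKM is per length, so the levels of different genes can be set side by side. With the siRNA, Jun averaged 56.0 FPKM, Fos 30.7, Jund 15.6, Fosl2 5.60, Junb 4.55, Fosl1 2.96, Maff 1.48, Atf3 1.42, Mafk 1.41 and Fosb 1.29. In the controls the order was Jun at 52.1 FPKM, Fos at 16.8, Jund at 14.4, Fosl2 at 3.91, Junb at 2.44, Fosl1 at 1.76, Maff at 1.75, Mafk at 1.47, Atf3 at 0.537 and Fosb at 0.226. With the siRNA the library ranges overlapped between Fosl2 and Junb, and between each neighbouring pair from Maff down to Fosb. In the controls they overlapped between each neighbouring pair from Junb down to Mafk, while Atf3 and Fosb lay apart at the bottom. The other neighbours did not overlap in either group.

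**Figure D1:**
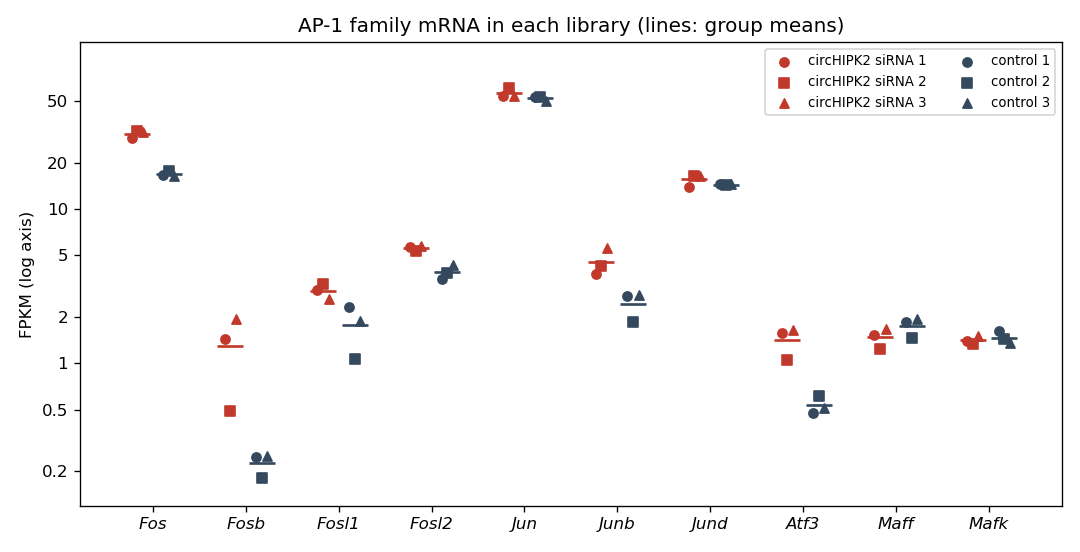
FPKM of the 10 AP-1 members in each library on a log axis, with circHIPK2 siRNA libraries in red and control libraries in blue, a marker shape per replicate number, and a line at each group's mean. Fos, Fosb, Fosl1, Fosl2, Jun, Junb and Atf3 have all 3 siRNA points above all 3 control points, narrowly for Jun, and the points of Jund, Maff and Mafk overlap.

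The comparison asks how the mRNAs of the family differ when circHIPK2 is targeted. Of the 10 members, Fos rose, 7 passed the filter on low values without passing the test, and 2, Fosb and Atf3, averaged below 1 FPKM over the 6 libraries and were not tested. Over all 13702 entries tested, 0.117% were called higher and 0.139% lower (limma with Benjamini-Hochberg adjustment, adjusted p below 0.05). All 3 siRNA libraries lay above all 3 controls for 7 of the 10 members and below them for 0. Among all 31660 entries detected in any library 4.72% lay above and 12.5% below, and among the 13702 tested 2.65% and 22.1%. After median-of-ratios scaling, which brings the median log2 fold change of all entries close to 0, 8 of the 10 members lay above, against 10.1% of the entries tested. After removal of the 9 ribosomal RNA locus entries and rescaling it was again 8 of 10, against 13.8%. In both cases the added member was Jund. Both counts include Fosb and Atf3, while both shares cover only entries past the filter on low values. After median-of-ratios scaling Fosb did not pass that filter. Atf3, which averaged 0.537 FPKM in the controls before scaling, passed it. Shares over all detected entries were not computed after scaling. With 3 libraries against 3, an exact two-sided permutation test cannot give a p below 0.1, and each of the 7 members had that value. In these bulk libraries a change in the number of cells expressing a gene and a change in its RNA per cell cannot be told apart.

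Fos, the partner of Jun in the classical AP-1 dimer and one of the first genes transcribed after stimulation, had 28.7, 31.9 and 31.4 FPKM in siRNA libraries 1 to 3, against 16.5, 17.6 and 16.4 FPKM in control libraries 1 to 3. The siRNA libraries were all high and close to each other, and the lowest of them was 1.63 times the highest control. The means were 30.7 ± 1.71 FPKM with the siRNA and 16.8 ± 0.69 FPKM in the controls (SD, n = 3 each), a 1.82-fold difference. The log2 fold change was 0.83 (SE 0.09, 95% confidence interval 0.62 to 1.04) on the log2(FPKM + 1) scale, with an adjusted p of 0.0134 (limma with Benjamini-Hochberg adjustment), rank 12 of all entries tested by p. Across all entries the median log2 fold change was -0.12, so Fos stood 0.95 above it. With the 9 ribosomal RNA locus entries removed and the columns rescaled the log2 fold change of Fos was 1.05 (adjusted p = 0.00677, limma), and after median-of-ratios scaling 0.96 (adjusted p = 0.015). The call was lost without siRNA library 3 (adjusted p = 0.0608, limma) and without control library 3 (0.0585), with log2 fold changes of 0.81 in both.

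The other Fos genes were weakly expressed. Fosb, whose truncated splice form ΔFosB is known for persisting in stimulated neurons, had 1.45, 0.494 and 1.93 FPKM in siRNA libraries 1 to 3, against 0.248, 0.18 and 0.251 FPKM in control libraries 1 to 3. All siRNA libraries were higher, but library 2 lay far below the other siRNA libraries. Fosb averaged 1.29 ± 0.73 FPKM with the siRNA and 0.226 ± 0.040 FPKM in the controls (SD, n = 3 each), 5.70-fold apart. If the reads covered its longest annotated transcript of 3782 nt, the controls held about 14.9 to 20.3 fragments per library and siRNA library 2 about 38.9, or about 30.0 to 40.7 and 78.4 at the depths of the wider search. Without a filter on low values its log2 fold change was 0.85 (SE 0.25, adjusted p = 0.326, limma), among 31660 entries of which 0.0221% were called higher and 0.0695% lower. It was 1.26 with the columns rescaled to a common sum and 1.40 with the 9 ribosomal RNA locus entries also removed (adjusted p = 0.201 and 0.24, limma). The columns summed to between 453016 and 483209 FPKM, so rescaling to 1000000 raised the values and the added 1 weighed less. Fosb passed the filter of 1 FPKM there through its siRNA libraries. The part of the smaller weight in these larger log2 fold changes was not tested.

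Fosl1 (Fra-1) and Fosl2 (Fra-2) encode Fos proteins without the C-terminal transactivation domain of Fos, usually induced later than Fos. Fosl1 had 2.98, 3.27 and 2.62 FPKM in siRNA libraries 1 to 3, against 2.32, 1.07 and 1.89 FPKM in control libraries 1 to 3. Its groups did not overlap, but the lowest siRNA library was only 1.13 times the highest control, and control library 2 was low. The log2 fold change was 0.54 (95% confidence interval 0.14 to 0.95, adjusted p = 0.208, limma). Without control library 2 it was 0.35, against 0.49 to 0.69 without any other library. Fosl2 had 5.64, 5.36 and 5.78 FPKM in siRNA libraries 1 to 3, against 3.52, 3.86 and 4.35 FPKM in control libraries 1 to 3. The siRNA values lay within a narrow band above all controls. The log2 fold change of Fosl2 was 0.43 (0.19 to 0.66, adjusted p = 0.155, limma).

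Jun, which binds as a dimer with Fos or with itself and is a target of the JNK kinases, had 53.8, 60.5 and 53.8 FPKM in siRNA libraries 1 to 3, against 53.0, 53.2 and 50.1 FPKM in control libraries 1 to 3. The siRNA libraries were all above the controls, by 1.01 times at the nearest. The log2 fold change was 0.10 (SE 0.09, 95% confidence interval -0.11 to 0.32) and missed the threshold (adjusted p = 0.576, limma). Jund, the member typically expressed in resting cells, had 13.9, 16.3 and 16.5 FPKM with the siRNA, against 14.5, 14.3 and 14.4 FPKM in the controls. siRNA library 1 was below every control and the other siRNA libraries above, so the groups overlapped. The log2 fold change of Jund was 0.10 (-0.12 to 0.32, adjusted p = 0.587, limma). The values of both depended on the scaling. Jun had a log2 fold change of 0.24 after median-of-ratios scaling, 0.29 after quantile normalization and 0.31 with the ribosomal RNA locus entries removed and the columns rescaled (unadjusted p = 0.011, 0.0046 and 0.0057, adjusted p = 0.248, 0.199 and 0.254, limma). For Jund these settings gave 0.23, 0.24 and 0.31 (unadjusted p = 0.039, 0.038 and 0.033, adjusted p = 0.349, 0.363 and 0.385, limma). In the deposited FPKM, the intervals of Jun and Jund end below the lower bound of the interval for Fos, 0.62, but the difference between the genes was not tested.

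Junb, an inducible Jun protein that can restrain Jun, had 3.81, 4.28 and 5.56 FPKM in siRNA libraries 1 to 3, against 2.72, 1.85 and 2.76 FPKM in control libraries 1 to 3. All siRNA libraries were high, and the lowest was 1.38 times the highest control. Its means were 4.55 ± 0.91 FPKM with the siRNA and 2.44 ± 0.51 FPKM in the controls (SD, n = 3 each). The log2 fold change of 0.69 (95% confidence interval 0.33 to 1.05) did not pass the test over all entries (adjusted p = 0.144, limma). Junb overlaps the abundant peroxiredoxin gene Prdx2 by 351 nt on the opposite strand in GENCODE M21, and no source used here says whether strand was used in counting. Prdx2 itself had 111 ± 8.44 FPKM with the siRNA and 118 ± 9.19 FPKM in the controls. Jun, Jund, Fosl1, Atf3 and Mafk also overlap an opposite-strand gene, of which only Ccdc85b, beside Fosl1, reached 1 FPKM (13.3 ± 2.26 and 14.2 ± 0.88 FPKM).

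Atf3, a stress-induced factor that pairs with Jun proteins and marks injured neurons, had 1.57, 1.04 and 1.65 FPKM in siRNA libraries 1 to 3, against 0.478, 0.619 and 0.515 FPKM in control libraries 1 to 3. As for Fosb, library 2 was the lowest of the siRNA libraries, yet it had 1.69 times the value of the highest control. Atf3 averaged 1.42 ± 0.33 FPKM with the siRNA and 0.537 ± 0.073 FPKM in the controls (SD, n = 3 each), 2.64-fold apart. Without a filter the log2 fold change was 0.65 (SE 0.13, adjusted p = 0.228, limma). It was 0.92 with the columns rescaled to a common sum and 1.06 with the 9 ribosomal RNA locus entries also removed (adjusted p = 0.124 and 0.128, limma). The added 1 weighed less after this rescaling too, and its part in these values was not tested. siRNA library 2 was also the siRNA library with the smallest share of FPKM in the ribosomal RNA locus entries, and library 3 had the largest. Among siRNA libraries, library 3 was highest for Fosb, Fosl2, Junb, Jund, Atf3, Maff and Mafk. Library 2 was highest for Fos, Fosl1 and Jun, and Junb and Jund were lowest in library 1. The part of that share in these values was not tested.

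The small Maf genes showed no difference larger than the spread between libraries. Maff had 1.53, 1.24 and 1.66 FPKM with the siRNA, against 1.87, 1.46 and 1.93 FPKM in the controls, and the groups overlapped. Its log2 fold change was -0.15 (95% confidence interval -0.44 to 0.14, adjusted p = 0.536, limma). Mafk had 1.40, 1.34 and 1.50 FPKM with the siRNA, against 1.62, 1.43 and 1.36 FPKM in the controls, which also overlapped. Its log2 fold change was -0.03 (-0.28 to 0.22, adjusted p = 0.891, limma), and this sign turned under median-of-ratios scaling (0.051), quantile normalization (0.031) and removal of the ribosomal RNA locus entries (0.12).

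**Figure D2:**
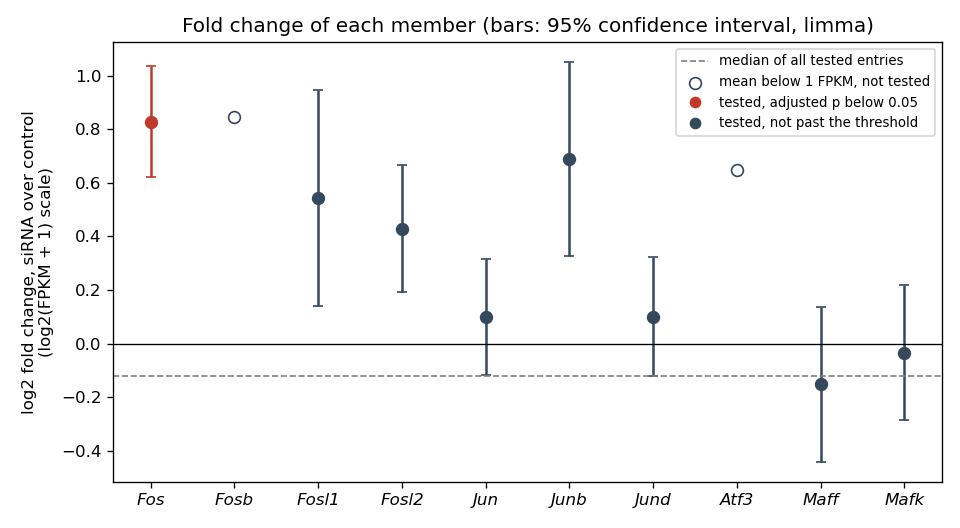
Log2 fold change of circHIPK2 siRNA over control for each member on the log2(FPKM + 1) scale, with 95% confidence intervals from limma for the 8 tested members and open circles for Fosb and Atf3, which were not tested. Fos at 0.83 is the red point past the threshold, the intervals of Jun, Jund, Maff and Mafk span 0, and the dashed line marks the median of all entries at -0.12.

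The Fos genes took a larger part of the family's summed FPKM with the siRNA. The 4 Fos genes summed to 38.8, 41.1 and 41.7 FPKM in siRNA libraries 1 to 3, against 22.6, 22.7 and 22.8 FPKM in control libraries 1 to 3. The 3 Jun genes summed to 71.5, 81.1 and 75.9 FPKM with the siRNA, against 70.1, 69.4 and 67.3 FPKM in the controls. Neither sum overlapped between the groups, and the gap was wider for the Fos genes. The Fos sum divided by the Jun sum was 0.533 ± 0.023 with the siRNA and 0.330 ± 0.0085 in the controls (SD, n = 3 each). The ratio of Fos to Jun within a library cannot be changed by multiplying all values of that library by the same factor. This ratio was 0.535, 0.528 and 0.583 with the siRNA, against 0.312, 0.331 and 0.326 in the controls. Its values lay close together within each group and apart between them.

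**Figure D3:**
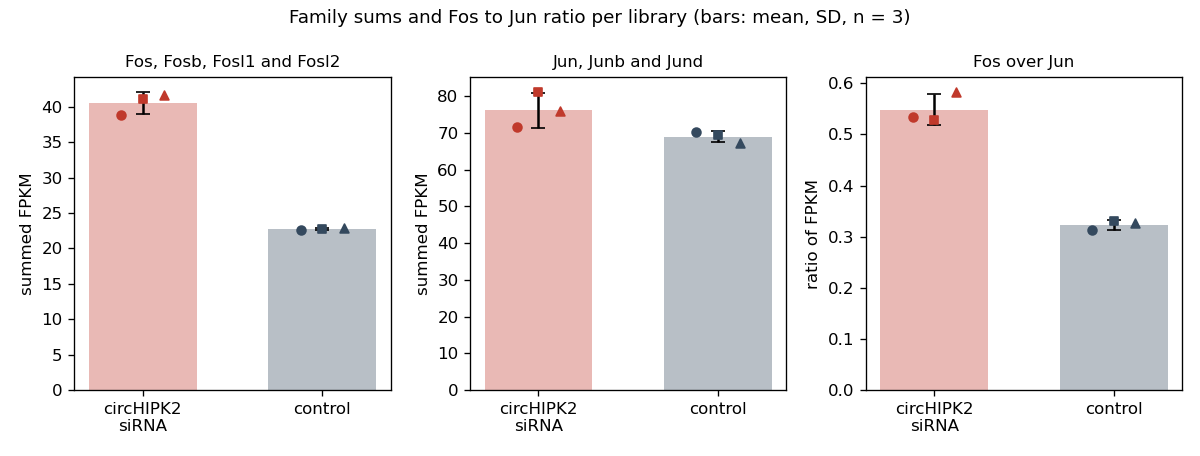
Summed FPKM of the Fos genes, summed FPKM of the Jun genes, and the ratio of Fos to Jun, with a point per library and bars for the mean and SD (n = 3) of circHIPK2 siRNA and control libraries. The Fos sum averages 40.5 ± 1.53 and 22.7 ± 0.11 FPKM, the Jun sum 76.1 ± 4.79 and 68.9 ± 1.45 FPKM, and the ratio 0.548 ± 0.030 and 0.323 ± 0.0098.

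Inside the Fos group, the share of Fos itself overlapped between the groups. Fos made up 75.7% ± 1.89 of its summed FPKM with the siRNA and 74.1% ± 3.09 in the controls (SD, n = 3 each). Fosb made up 3.18% ± 1.77 with the siRNA and 0.995% ± 0.17 in the controls, and Fosl2 13.8% ± 0.74 and 17.2% ± 1.75. Within the Jun group, Junb made up 5.98% ± 1.17 of the sum with the siRNA and 3.54% ± 0.77 in the controls, and Jun 73.6% ± 2.30 and 75.6% ± 1.13. Of all 10 members together, Fos contributed 25.4% ± 0.30 with the siRNA and 17.6% ± 0.70 in the controls.

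Genes around AP-1 were followed through 6 further lists, in which 0 members passed the test over all entries (limma with Benjamini-Hochberg adjustment). Of their 91 tested members, 11 had an unadjusted p below 0.05 with a higher level and 10 with a lower one, against 1.83% and 15.5% of all entries tested. After median-of-ratios scaling, a setting added after seeing the data, these counts were 25 and 2, against 6.52% and 6.83%. The first lists hold the inputs to AP-1. Of 23 tested genes of the ERK pathway and of SRF and CREB, which switch on Fos transcription, 8 lay above the median of all entries, with a list median log2 fold change of -0.16 against -0.12 for all. Rps6ka3, the kinase RSK2 that acts below ERK, had 3.25, 5.47 and 3.41 FPKM with the siRNA, against 11.5, 14.5 and 8.97 FPKM in the controls. Its log2 fold change of -1.33 missed the threshold narrowly (adjusted p = 0.0514, limma). Crem, a CREB relative with an inducible repressor form, averaged 2.68 ± 0.64 FPKM with the siRNA and 1.54 ± 0.32 FPKM in the controls (log2 fold change 0.53, adjusted p = 0.191, limma).

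Of 20 tested JNK and p38 kinase pathway genes, 7 lay above the median of all entries, with a list median of -0.17. Mapk8, which encodes the Jun kinase JNK1, averaged 7.46 ± 1.06 FPKM with the siRNA and 10.7 ± 2.04 FPKM in the controls (log2 fold change -0.46, adjusted p = 0.203, limma). The JNK scaffold genes Mapk8ip2 and Mapk8ip3 averaged 3.34 ± 0.43 and 44.0 ± 4.18 FPKM with the siRNA, against 4.26 ± 0.096 and 39.9 ± 5.47 FPKM in the controls. Of 8 tested genes of AP-1 protein turnover and co-regulation, 6 lay above the median of all entries, with a list median of -0.04. Among them Gsk3a, a kinase that marks Jun for destruction, averaged 44.8 ± 2.39 FPKM with the siRNA and 51.8 ± 2.21 FPKM in the controls.

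Of 13 tested genes of other leucine zipper partners, 9 lay above the median of all entries, with a list median of -0.04. Jdp2, a repressor that binds Jun, averaged 6.84 ± 0.31 FPKM with the siRNA and 8.74 ± 0.38 FPKM in the controls (log2 fold change -0.31, adjusted p = 0.191, limma). Atf4, the effector of the integrated stress response, averaged 129 ± 11.9 FPKM with the siRNA and 102 ± 5.68 FPKM in the controls (0.33, adjusted p = 0.21, limma). In neither gene did the groups overlap. Jdp2 lay below all controls in every siRNA library, as did 22.1% of all entries tested. Atf4 lay above them, as did 2.65%. Of the 13 tested genes of this list, 3 lay above and 2 below.

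Of 11 tested genes described as AP-1 targets in other cells, 9 lay above the median of all entries, with a list median of 0.04. Of these 11, 2 had an unadjusted p below 0.05 (limma) with a higher level and 2 with a lower one. The shares of all entries tested were 1.83% and 15.5%, so the lower count is near its share. Timp1, an inhibitor of metalloproteinases, averaged 13.0 ± 2.54 FPKM with the siRNA and 7.22 ± 1.05 FPKM in the controls (log2 fold change 0.76, adjusted p = 0.128, limma). Ccl2, a monocyte chemokine, averaged 1.93 ± 0.24 and 0.681 ± 0.29 FPKM (0.81, adjusted p = 0.106, limma). Ccl2 passed the filter on low values through the siRNA libraries. The 2 with a lower level, named after their values were seen, were the urokinase gene Plau (1.32 ± 0.26 FPKM with the siRNA and 2.06 ± 0.043 FPKM in the controls, log2 fold change -0.41, adjusted p = 0.191, limma) and the DNA methyltransferase gene Dnmt1 (33.0 ± 2.46 and 41.7 ± 5.01 FPKM, -0.32, adjusted p = 0.231). The cyclin D1 gene Ccnd1, the most abundant of them, averaged 333 ± 21.2 and 348 ± 32.6 FPKM, and its groups overlapped. The metalloproteinase gene Mmp3 and the cytokine gene Il6 were listed at 0 in all 6 libraries.

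Of 16 tested immediate early genes outside the family, 15 lay above the median of all entries, with a list median of 0.23. Of these 16, 6 had an unadjusted p below 0.05 (limma) with a higher level and 0 with a lower one. The shares of all entries tested were 1.83% and 15.5%. After median-of-ratios scaling these counts were 10 and 0, against shares of 6.52% and 6.83%. The 2 with the smallest p, the zinc finger factor genes Klf4 and Egr1, averaged 3.45 ± 0.39 and 72.2 ± 4.13 FPKM with the siRNA, against 1.69 ± 0.24 and 50.8 ± 5.74 FPKM in the controls (adjusted p = 0.0702 and 0.137, limma), while Myc averaged 63.0 ± 7.13 and 69.0 ± 8.94 FPKM.

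**Figure D4:**
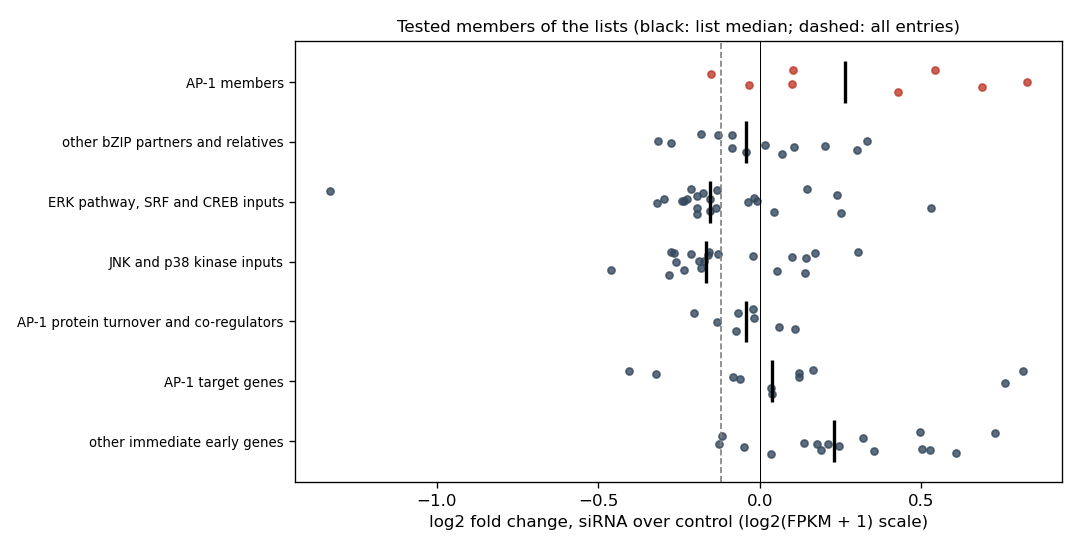
Log2 fold change of circHIPK2 siRNA over control for the tested genes of 7 lists, with a point per gene, a black bar at each list's median and a dashed line at the median of all entries, -0.12. The medians of the AP-1 members (0.26) and of the other immediate early genes (0.23) lie to the right of the other lists, whose medians run from -0.17 to 0.04.

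The profile of Fos over the 6 libraries was compared with that of every tested entry by the root mean square difference of log2(FPKM + 1), each centred on its own mean. The 5 named genes most alike were Gbp2, an interferon-induced GTPase gene (0.0818), the ribosomal protein gene Rpl21 (0.109), Klf4 (0.116), Slc5a3, a myo-inositol transporter gene (0.123), and Trim47, a RING finger gene (0.127). The median over all tested entries was 0.497, and a gene at one constant level would be 0.418 from Fos. Gbp2 was weakly expressed, with 1.72 ± 0.28 FPKM with the siRNA and 0.536 ± 0.16 FPKM in the controls. It passed the filter on low values through the siRNA libraries. Its means were 3.22-fold apart and those of Fos 1.82-fold, yet with the added 1 both had a log2 fold change of 0.83. The closeness of Gbp2 to Fos therefore depends on the added 1, and profiles without it were not compared. Of these 5, Rpl21, a gene with many pseudogene copies that may share its reads, rose (13.2 ± 0.24 FPKM with the siRNA and 6.95 ± 0.75 FPKM in the controls, adjusted p = 0.0143, limma). Among AP-1 members Junb (0.209) and Fosl2 (0.225) came nearest to Fos, followed by Fosl1 (0.283), Jund (0.366), Jun (0.367), Mafk (0.437) and Maff (0.512), of which the last pair lay farther from Fos than a constant level would.

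**Figure D5:**
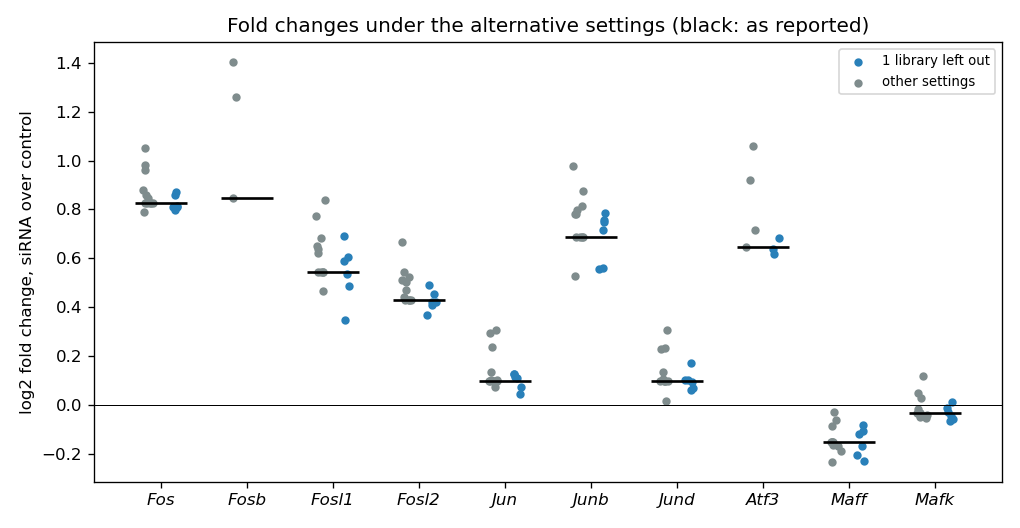
Log2 fold change of each member under the alternative settings in which it was tested, with fits that left out 1 library in blue, other settings in grey, and a black line at the value reported. Fos stays between 0.79 and 1.05, Jun and Jund stay between 0.02 and 0.31, and Mafk changes sign.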

How the data were processed

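The authors deposited FPKM values (fragments per kilobase per 1000000 mapped fragments) for 54884 entries in 6 libraries. The submitters' processing notes name the tools HISAT, StringTie and edgeR and the genome build mm9. Not given in the sources used here are versions, annotation, and any use of strand or of the molecular identifiers in the adapters. No coordinates are given on mm9, and promoter windows and gene overlaps come from GRCm38.

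Values were taken as log2(FPKM + 1), keeping the 13702 entries that averaged 1 FPKM or more. The test was limma 3.58.1 in R 4.3.3, two-sided and with a mean-variance trend. Its p-values were adjusted by the Benjamini-Hochberg method over every entry tested, with a threshold of 0.05. A log2 fold change on this scale understates the change of weak genes. Folds are ratios of mean FPKM, and exact permutation tests compared mean FPKM with SciPy 1.17.1. The steps were tested on simulated data. Depth was read, up to 30000000 fragments, from low values of genes with a single annotated transcript, 500 nt or longer. Between 39.9% and 44.4% of these lay within 0.05 of a whole fragment, against 10% by chance, so depth is an estimate, and a search up to 50000000 scored better for all 6 libraries.

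Named were all members, the list members past the threshold or, where there were none, the 2 with the smallest p and the 1 with the highest mean, and the 5 genes most like Fos, leaving out predicted genes, clones and pseudogenes. A few genes that this rule takes are not reported here. Members and lists were chosen with earlier results of these data known. Alternatives were pseudocounts, filters, scalings, moderation, library weights, a replicate block and each library left out.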

Additional observations from a re-analysis of the deposited data

How the results depend on the processing

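Fos was called under all 12 alternatives that kept every library (adjusted p from 0.00467 to 0.0295, limma) and in 4 of 6 fits that left out 1 library, so the number of members called ran from 0 to 1 there. No other member was called under any alternative in which it was tested. The lowest adjusted p among them was 0.0521, for Fosl2 with library weights (limma). Mafk changed sign under median-of-ratios scaling (0.051), quantile normalization (0.031), removal of the ribosomal RNA locus entries (0.12) and without control library 1. With 1 library left out it ran from -0.065 to 0.012. Against 35 entries called over all genes, 22 were called with a mean of at least 5 FPKM, 16 with quantile normalization, 320 with library weights, and 8 to 35 with 1 library left out. Against 16 higher, there were 7 with no filter, 4 with quantile normalization, 8 with robust moderation, 55 with library weights and 2 to 15 with 1 library left out. Against 19 lower, there were 8 with a mean of at least 5 FPKM, 12 with quantile normalization, 265 with library weights and 6 to 23 with 1 library left out. A higher minimum tests fewer entries, and the other causes were not tested. Members above the controls in every library numbered 7 or 8 under the 4 scalings, a check added after seeing the data.

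The labels do not say whether the replicate numbers pair the libraries, and the values did not settle it. The correlations of same-numbered deviations were 0.046, 0.015 and 0.133. siRNA libraries 1 and 2 correlated best with another number and siRNA library 3 with its own. With the replicate number as a block 46 entries were called, 23 higher and 23 lower, and Fos kept its call (log2 fold change 0.83, adjusted p = 0.0198, limma). Fosb and Atf3 rest on few fragments, which limits the precision of their folds. Fosb was tested under 3 alternatives and Atf3 under 7.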
